A study of Mus musculus with 19 samples.

Results

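The genes described here are the protein-coding cytochrome P450 genes of families 1 to 4 in livers of mice given vehicle or the fibrosis-inducing agent thioacetamide. They were taken from the table of 31053 genes as those whose mouse symbol is Cyp followed by a family number of 1 to 4, a subfamily letter and a gene number, and 74 genes in 20 subfamilies met this rule (1 gene of subfamily 2E was left out when the members were chosen). The rule uses no measured value, although it was set with earlier results of these data known. All samples are livers of male C57BL/6 mice, aged 6 to 8 weeks at the start. Vehicle-treated mice (n = 5 libraries) received PBS, and their labels name no vector. The other mice received increasing doses of thioacetamide (TAA), a hepatotoxin, over 12 weeks, were injected after 10 weeks with AAV8 vectors and were killed 4 weeks later. In the AAV-GFP group (n = 7) the vector carried eGFP, and in the AAV-miR-34b/c group (n = 7) the miR-34b and the miR-34c vector were given together. The TBG promoter that drives both cargoes is active in hepatocytes. Comparisons with vehicle therefore differ in TAA and in vector together, which cannot be told apart, whereas AAV-miR-34b/c and AAV-GFP differ in the cargo.

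Cytochrome P450 enzymes are heme proteins of the endoplasmic reticulum that insert 1 atom of oxygen into a substrate with electrons passed on by P450 reductase. Families 1 to 3 oxidize drugs, toxins, steroids and bile acids, and family 4 hydroxylates fatty acids and eicosanoids. In the liver nearly all of this expression lies in hepatocytes, much of it around the central vein, and it is switched by ligand-activated receptors: the aryl hydrocarbon receptor (AhR) for subfamily 1A, the constitutive androstane receptor (CAR) and pregnane X receptor (PXR) for subfamilies 2B, 2C and 3A, and PPAR-alpha for subfamily 4A. Inflammatory signals are known to lower many P450 transcripts.

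The libraries were made from the 3′ ends of polyadenylated transcripts and held 2214073 to 5208405 counts each, and levels are given as CPM, the count scaled to the TMM-normalized library size. Counts of 3′ ends depend little on transcript length, so CPM can be set side by side between genes. In 6 pairs of libraries the counts lay closer together (coefficient of variation beyond counting noise 0.0814 to 0.177) than in the other 46 pairs within a group (0.213 to 0.479). These pairs were vehicle 1 and 4, vehicle 3 and 5, AAV-GFP 1 and 2, and AAV-miR-34b/c 1 and 2, 3 and 4, and 5 and 7. The labels call every library a biological replicate and do not say what the paired mice shared. Calls are therefore given also with each pair summed to 1 sample, so that 3 samples remain for vehicle, 6 for AAV-GFP and 4 for AAV-miR-34b/c. Exact permutation p-values take every library as a separate sample and were not computed with pairs summed. The hepatocyte markers fixed for the check of the tissue summed to 92143 to 110709 CPM in vehicle, 84123 to 100947 in AAV-GFP and 91603 to 138798 in AAV-miR-34b/c libraries. Of these, only the fibrinogen gene *Fgb*, which also belongs to the acute phase list, passed between the TAA groups (median 9627 CPM with AAV-GFP and 30751 with AAV-miR-34b/c; log2 fold change 1.35, edgeR adjusted p = 0.00114), and *Alb* did not (-0.043, adjusted p = 0.955). In bulk liver, fewer cells of a type and less RNA per cell cannot be told apart.

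Transcripts of the 74 genes together made up 0.852% to 0.971% of the counts of a vehicle library, 0.923% to 1.36% with AAV-GFP and 0.752% to 0.916% with AAV-miR-34b/c. Of the 74 genes, 18 had no count in any library, 7 had 1 to 10 counts in all 19 libraries together and 13 had 11 or more but too few to be tested. The remaining 36 passed the filter on low counts in at least 1 of the 3 comparisons (34 in all of them), and 21 had a mean of 100 CPM or more. The silent genes were *Cyp2b13*, *Cyp2b19*, *Cyp2b23*, *Cyp2c65*, *Cyp2c66*, *Cyp2j7*, *Cyp2j11*, *Cyp2j12*, *Cyp2j13*, *Cyp2t4*, *Cyp2w1*, *Cyp3a16*, *Cyp3a57*, *Cyp4a29*, *Cyp4f37*, *Cyp4f39*, *Cyp4f40* and *Cyp4x1*. *Cyp2b13* and *Cyp3a16* are known as female-biased genes, and all mice here were male. The highest mean levels over all libraries were those of *Cyp3a11* (1559 CPM), *Cyp2f2* (1097 CPM) and *Cyp2d9* (1029 CPM). The map of the tested genes by library shows where single livers and the close pairs departed from the vehicle mean.

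**Figure D1:**
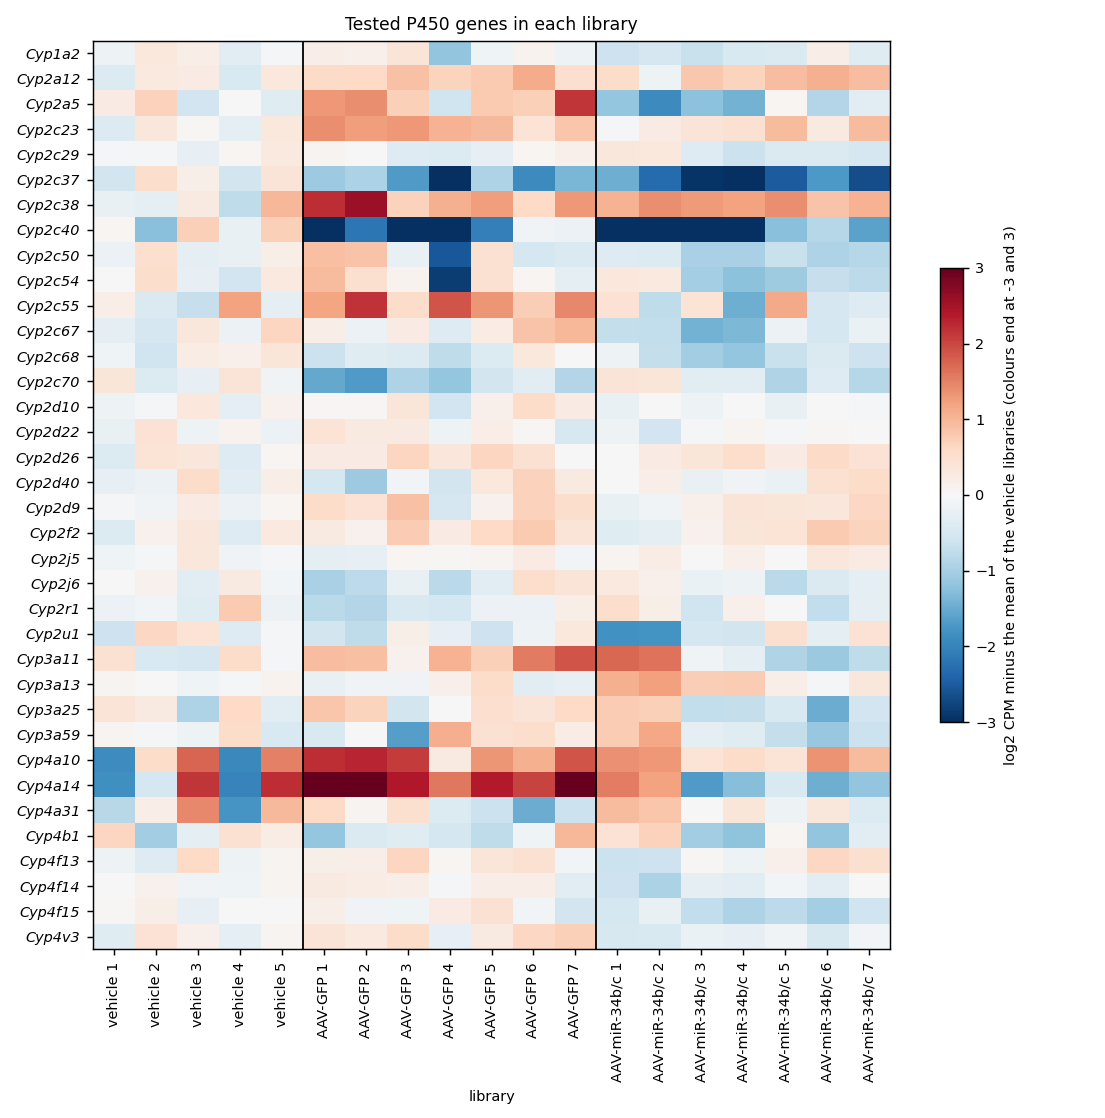
Levels of the 36 tested P450 genes (rows, by subfamily) in the 19 libraries (columns, by group), as log2 CPM minus the mean of the vehicle libraries; red is above and blue below that mean, and colours end at -3 and 3. *Cyp2c37* is blue in all libraries of both TAA groups, *Cyp4a14* is red in all AAV-GFP libraries, and *Cyp3a11* is red in AAV-miR-34b/c 1 and 2 but not in the other 5 libraries of that group.

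Promoters were read for 61 of the 74 genes (68 promoters, 250 bases before to 50 after the annotated start; RefSeq, GRCm38.p6). Shown are 2 pairs of close relatives that recur in the results, *Cyp2a5* with *Cyp2a4* and *Cyp2c37* with *Cyp2c50*, and the promoters of *Cyp2c67* and *Cyp3a11*. Capitals mark the letters searched on both strands: TTATGNAA, the D-box bound by the clock-controlled PAR bZIP factors, and CAAAGTCCA, an element of the hepatocyte factor HNF4, with its first 7 letters CAAAGTC, which lie within the longer form and were added after the promoters had been seen. The promoter of *Cyp2a5* is at chr7:26835089-26835388 (plus strand), of *Cyp2a4* at chr7:26306942-26307241 (plus strand), of *Cyp2c37* at chr19:39992174-39992473 (plus strand), of *Cyp2c50* at chr19:40089429-40089728 (plus strand), of *Cyp2c67* at chr19:39648993-39649292 (minus strand) and of *Cyp3a11* at chr5:145879805-145880104 (minus strand). All are printed 5′ to 3′ in the direction of the gene.
Cyp2a5: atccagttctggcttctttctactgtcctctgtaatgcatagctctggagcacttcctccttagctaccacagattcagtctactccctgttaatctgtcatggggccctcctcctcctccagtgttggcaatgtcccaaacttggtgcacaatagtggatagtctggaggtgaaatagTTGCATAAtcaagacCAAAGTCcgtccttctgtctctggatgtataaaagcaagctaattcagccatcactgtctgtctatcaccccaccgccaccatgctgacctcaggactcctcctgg
Cyp2a4: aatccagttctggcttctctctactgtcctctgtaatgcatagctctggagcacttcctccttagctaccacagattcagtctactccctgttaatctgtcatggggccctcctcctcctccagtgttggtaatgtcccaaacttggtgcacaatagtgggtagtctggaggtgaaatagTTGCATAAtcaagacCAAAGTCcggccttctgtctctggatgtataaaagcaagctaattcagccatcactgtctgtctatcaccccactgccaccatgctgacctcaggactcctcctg
Cyp2c37: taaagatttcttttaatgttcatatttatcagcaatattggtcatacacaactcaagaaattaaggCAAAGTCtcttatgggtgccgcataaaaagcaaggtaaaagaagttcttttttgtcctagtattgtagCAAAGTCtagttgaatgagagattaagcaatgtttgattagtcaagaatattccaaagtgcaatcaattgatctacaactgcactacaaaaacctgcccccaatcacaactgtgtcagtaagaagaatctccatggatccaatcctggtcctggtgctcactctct
Cyp2c50: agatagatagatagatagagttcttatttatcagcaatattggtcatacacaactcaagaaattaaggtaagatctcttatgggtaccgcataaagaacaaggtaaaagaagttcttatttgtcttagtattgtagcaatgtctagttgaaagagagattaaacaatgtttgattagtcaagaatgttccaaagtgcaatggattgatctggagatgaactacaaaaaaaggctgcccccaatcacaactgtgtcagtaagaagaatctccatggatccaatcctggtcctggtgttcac
Cyp2c67: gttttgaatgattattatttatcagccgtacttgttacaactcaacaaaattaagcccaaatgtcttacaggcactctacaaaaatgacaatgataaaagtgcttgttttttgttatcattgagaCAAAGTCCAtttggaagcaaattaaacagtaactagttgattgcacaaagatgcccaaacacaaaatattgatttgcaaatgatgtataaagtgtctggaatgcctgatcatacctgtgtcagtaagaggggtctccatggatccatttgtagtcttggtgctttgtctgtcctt
Cyp3a11: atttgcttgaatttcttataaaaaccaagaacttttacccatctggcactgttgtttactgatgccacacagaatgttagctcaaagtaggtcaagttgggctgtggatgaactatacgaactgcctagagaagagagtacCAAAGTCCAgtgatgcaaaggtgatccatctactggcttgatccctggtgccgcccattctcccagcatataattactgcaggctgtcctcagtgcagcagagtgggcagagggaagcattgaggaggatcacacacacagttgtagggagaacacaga

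The promoters of *Cyp2a5* and *Cyp2a4* shared 97.7% of their aligned letters, and each held a D-box (71 and 70 bases before the start) and CAAAGTC (56 and 55 bases before it). The promoters of *Cyp2c37* and *Cyp2c50* shared 86.6% of aligned letters, but CAAAGTC stood at 2 places in that of *Cyp2c37*, 184 and 116 bases before the start, and at none in that of *Cyp2c50*. The 9-letter form was found 125 bases before the start of *Cyp2c67* and 109 bases before that of *Cyp3a11*. Over all promoters, it was held by 8 of 68 P450 promoters (11.8%) and by 0.475% of the 32851 promoters of the table, and CAAAGTC by 26.5% and 4.44%. The D-box was in 8.82% of P450 promoters (*Cyp2a4*, *Cyp2a5*, *Cyp2b10*, *Cyp2b19*, *Cyp2b23* and *Cyp4f14*) and in 3.39% of all. The core GCGTG of the AhR element was in 20.6% of P450 promoters and 32.4% of all, and the DR1 element of PPAR-alpha was in none of the P450 promoters read, which did not include those of *Cyp4a10* and *Cyp4a14*, and 0.0396% of all. Related promoters are not independent, and these shares are descriptions. The letters CACTGCC, which pair with the shared seed of miR-34b and miR-34c, occurred in the longest annotated 3′ UTR of 3 of the 74 genes (4.05%; *Cyp2c54*, *Cyp2j6* and *Cyp2j13*) and of 13.8% of 21637 genes of the table. Neither *Cyp2c54* (log2 fold change -0.64, SE 0.39, edgeR adjusted p = 0.471) nor *Cyp2j6* (log2 fold change 0.033, SE 0.24, edgeR adjusted p = 0.972) passed the test between the TAA groups, and *Cyp2j13* had no count.

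Between AAV-GFP-injected and vehicle-treated livers, 5 of 36 tested P450 genes were higher (*Cyp2a5*, *Cyp2a12*, *Cyp2c23*, *Cyp2c38* and *Cyp3a11*), where 7.54% of all genes tested were higher, and 2 were lower (*Cyp2c37* and *Cyp2c70*), where 5.19% of all genes were lower. *Cyp2c38* passed the low-count filter through the TAA group, where it is high, here and with AAV-miR-34b/c against vehicle. Its calls are no support for the counts of higher P450 genes. In AAV-miR-34b/c livers, 5 of 34 were lower than in AAV-GFP livers (*Cyp2a5*, *Cyp2c67*, *Cyp4a14*, *Cyp4f15* and *Cyp4v3*), against 1.42% of all genes, and none was higher in edgeR, against 1.95% of all genes. In that comparison DESeq2 called 1 gene higher, *Cyp3a13*, and 7 lower, where 3.22% and 2.64% of all genes were called. Set against vehicle, AAV-miR-34b/c livers were higher for 3 of 35 genes (*Cyp2a12*, *Cyp2c38* and *Cyp3a13*; 12.2% of all genes) and lower for 7 (*Cyp2a5*, *Cyp2c37*, *Cyp2c40*, *Cyp2c50*, *Cyp2c67*, *Cyp2c68* and *Cyp4f15*; 9.75% of all genes), of which *Cyp2c40* passed the low-count filter through vehicle alone. The median log2 fold change of the tested P450 genes was 0.12, -0.24 and -0.19 in these comparisons, and that of all genes -0.0090, -0.0075 and 0.016. The fold change was below 0 for 14 of 36, 27 of 34 and 23 of 35 P450 genes. Several of them are close relatives, so these are not counts of independent genes, and the share of all genes below 0 was not counted. The comparisons share groups, so their values stand side by side and are not independent of each other. Calls were made with edgeR's quasi-likelihood test at a Benjamini-Hochberg adjusted p under 0.05 over all genes tested. With close pairs summed, *Cyp2c37* was lower with AAV-GFP than with vehicle (0.846% of all genes lower), *Cyp4a14* was lower with AAV-miR-34b/c than with AAV-GFP (0.306%) and *Cyp2c37* was lower with AAV-miR-34b/c than with vehicle (1.21%). The 1 gene called higher in these summed fits, *Cyp2a4* with AAV-GFP against vehicle (1.41% of all genes higher), entered only through the AAV-GFP libraries, where it was high, so its call carries no weight. None was higher in the other 2 summed fits (0.526% and 1.91% of all genes). The plot of fold changes by subfamily shows these calls beside the genes that did not pass.

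**Figure D2:**
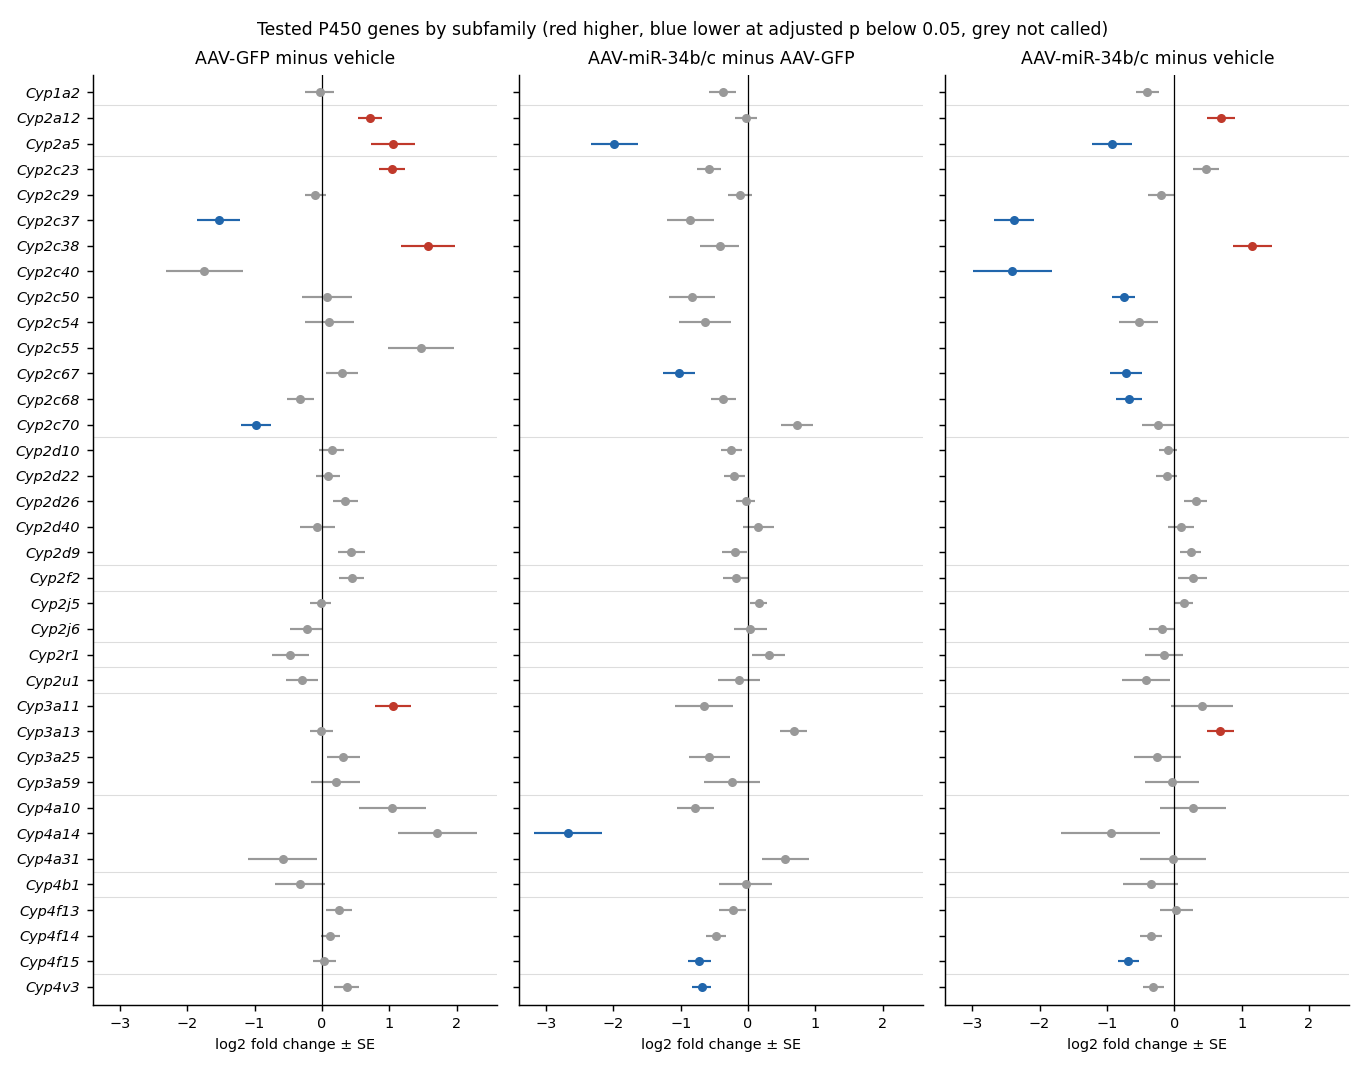
Log2 fold change (points) with its SE (bars) of the P450 genes tested in each comparison, grouped by subfamily; red points are higher and blue points lower at an edgeR adjusted p under 0.05, and grey points were not called. In the middle panel (AAV-miR-34b/c minus AAV-GFP) 27 of 34 points lie below 0 and the blue points are *Cyp2a5*, *Cyp2c67*, *Cyp4a14*, *Cyp4f15* and *Cyp4v3*.

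Subfamily 2A holds coumarin and steroid hydroxylases, and 2 of its genes were tested. Both rose when AAV-GFP was set against vehicle, a comparison in which 7.54% of all genes rose and 5.19% fell. When AAV-miR-34b/c was set against vehicle, 1 fell and 1 rose, beside 9.75% and 12.2% of all genes. Between the TAA groups 1 fell, beside 1.42% of all genes. *Cyp2a5* (ENSMUSG00000005547, chromosome 7 from 26835305 to 26843548 of GRCm38), the mouse coumarin 7-hydroxylase, had 95.3, 129.8, 53.2, 80.4 and 61.8 CPM in vehicle 1 to 5, 52.5 to 358 (median 138) with AAV-GFP and 20.7 to 83.6 (median 35.5) with AAV-miR-34b/c. Of the AAV-GFP libraries, 6 of 7 lay above every vehicle library, and AAV-GFP 4 lay below all of them. *Cyp2a5* was 2.08-fold higher with AAV-GFP than with vehicle (log2 fold change 1.05, SE 0.33, edgeR adjusted p = 0.0395), a call that was kept in 5 of 12 fits with 1 library left out and lost with close pairs summed (adjusted p = 0.262). It was 3.97-fold lower with AAV-miR-34b/c than with AAV-GFP (log2 fold change -1.99, SE 0.35, edgeR adjusted p = 0.00305), with 5 of 7 livers below every AAV-GFP liver and the call kept in all 14 such fits. With close pairs summed its log2 fold change was -1.94 (adjusted p = 0.0552). Against vehicle it fell by 0.92 on the log2 scale (SE 0.30, edgeR adjusted p = 0.0352), and this call was lost in 6 of the 12 fits with 1 library left out, with an adjusted p of 0.107 and a log2 fold change of -0.72 without vehicle 2.

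*Cyp2a4*, a testosterone 15-alpha-hydroxylase gene known as female-biased and with nearly the same promoter, did not pass the low-count filter in any of the 3 comparisons. Its calls in filtered fits of other sets of samples, such as the summed one, rest on the high libraries that let it in. With no filter on low counts edgeR called it higher with AAV-GFP than with vehicle (adjusted p = 4.98e-05). In the same setting it was lower with AAV-miR-34b/c than with AAV-GFP (adjusted p = 0.0345). It had 1 count in the 5 vehicle libraries together, 3 to 47 counts in each AAV-GFP library and 0 to 12 with AAV-miR-34b/c, where 3 of 7 libraries had none. All AAV-GFP livers had more *Cyp2a4* CPM than any vehicle liver (exact permutation p = 0.00379 for log2 CPM, two-sided), and the exact p between the TAA groups was 0.00583. Both p-values take the close pairs as separate samples. Of the 100-base words in the last 500 bases of its transcript, 5.74% also occur in *Cyp2a5*, so reads of that stretch could come from either gene. *Cyp2a22* had 1 count in vehicle, 36 with AAV-GFP and 9 with AAV-miR-34b/c. *Cyp2a12*, a steroid and bile acid hydroxylase, had 124, 202, 197, 121 and 206 CPM in vehicle, 235 to 356 (median 264) with AAV-GFP and 149.9 to 345 (median 288) with AAV-miR-34b/c. Here all 7 AAV-GFP libraries and 6 of 7 AAV-miR-34b/c libraries were above the vehicle range. It rose with AAV-GFP (log2 fold change 0.71, SE 0.18, edgeR adjusted p = 0.0139) and with AAV-miR-34b/c (log2 fold change 0.69, SE 0.21, edgeR adjusted p = 0.0253) against vehicle, and its log2 fold change between the TAA groups was -0.035 (SE 0.17), with a sign that turned when AAV-GFP 6 or AAV-miR-34b/c 2 was left out. With close pairs summed, neither call against vehicle was kept (adjusted p = 0.104 and 0.133), and that with AAV-miR-34b/c was also lost without vehicle 1 (0.0764), without vehicle 4 (0.0793) and with library size only (0.0813).

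Subfamily 2B, the classical target of CAR, was nearly silent. *Cyp2b10*, its best known member, had 125 counts in all: 1 in the vehicle libraries, 72 with AAV-GFP, of which 50 in AAV-GFP 4, and 52 with AAV-miR-34b/c, of which 35 in AAV-miR-34b/c 1. *Cyp2b9* had 10 counts, all in AAV-GFP libraries. *Cyp2b10* was not tested in edgeR with the filter, and the exact permutation p of its log2 CPM was 0.0556 between AAV-GFP and vehicle and 0.772 between the TAA groups. With no filter on low counts edgeR called it higher with AAV-GFP and with AAV-miR-34b/c than with vehicle (adjusted p = 0.00776 and 0.0259). Of 10 tested CAR and PXR targets outside the P450 genes, 4 were higher with AAV-GFP than with vehicle, among them the glutathione S-transferase gene *Gstm3* (log2 fold change 2.34, edgeR adjusted p = 2.26e-05), and 1 was lower. In that comparison 7.54% of all genes were higher and 5.19% lower. Between the TAA groups 2 of these 10 fell with AAV-miR-34b/c (1.42% of all genes), *Gstm3* (log2 fold change -1.12, edgeR adjusted p = 0.0108) and the transporter gene *Slco1a4* (-1.32, adjusted p = 0.0186), and none was higher. The fold changes of these 10 genes had a median of 0.52 and -0.34 on the log2 scale in the 2 comparisons. With AAV-miR-34b/c against vehicle 3 were higher and 3 lower (12.2% and 9.75% of all genes), with a median of 0.33. For the tested P450 genes listed as CAR or PXR targets the median was 0.092 with AAV-GFP against vehicle. It was -0.66 between the TAA groups and -0.52 with AAV-miR-34b/c against vehicle.

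Subfamily 2C, the largest with 15 genes, hydroxylates drugs, steroids and arachidonic acid, and its summed level was 1969, 1744, 1767, 2048 and 2169.6 CPM in vehicle, 1161 to 1844 (median 1744) with AAV-GFP and 1272 to 2064 (median 1341) with AAV-miR-34b/c. The first 2 AAV-miR-34b/c libraries, a close pair, lay within the vehicle range and above the AAV-GFP range, whereas the other 5 lay between 1272 and 1397. Of 11 tested genes, 2 rose and 2 fell with AAV-GFP against vehicle, where 7.54% of all genes were higher and 5.19% lower. Of 10 tested genes, 1 rose and 5 fell with AAV-miR-34b/c against vehicle, where 12.2% of all genes were higher and 9.75% lower. Without *Cyp2c40*, which entered the test through vehicle, 4 of 9 fell. *Cyp2c38*, the 1 that rose and 1 of the 2 that rose with AAV-GFP, entered through the TAA groups, where it is high. Its rises are no support for these counts.

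*Cyp2c37* (ENSMUSG00000042248, chromosome 19 from 39992424 to 40012243), a gene known for pericentral expression and for hydroxylation of arachidonic acid, was lower in both TAA groups than in vehicle under every alternative run. It had 45.9, 96.9, 76.7, 46.0 and 87.7 CPM in vehicle, 4.62 to 35.2 (median 25.6) with AAV-GFP and 6.80 to 23.9 (median 11.4) with AAV-miR-34b/c. Every library of both TAA groups lay below every vehicle library. It was 2.90-fold lower with AAV-GFP (log2 fold change -1.54, SE 0.32, edgeR adjusted p = 0.00499) and 5.2-fold lower with AAV-miR-34b/c (log2 fold change -2.38, SE 0.29, edgeR adjusted p = 0.000119) than with vehicle. Both calls were kept with close pairs summed (adjusted p = 0.0294 and 0.0124) and in every fit with 1 library left out. Between the TAA groups it did not pass (log2 fold change -0.86, SE 0.35, edgeR adjusted p = 0.23), although it did once AAV-GFP 4 was left out (adjusted p = 0.0467).

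*Cyp2c50*, whose promoter is the closest relative shown, had 165, 266, 155, 160.4 and 212 CPM in vehicle, 31.7 to 349.7 (median 159.8) with AAV-GFP and 94.9 to 143 (median 104) with AAV-miR-34b/c. AAV-GFP 4 (31.7 CPM) was the lowest of all libraries and AAV-GFP 1 and 2 were the highest. With AAV-GFP *Cyp2c50* was not called against vehicle (log2 fold change 0.075, SE 0.36; the sign turned without AAV-GFP 1 or 2). With AAV-miR-34b/c all 7 livers lay below the vehicle range (log2 fold change -0.75, SE 0.17, edgeR adjusted p = 0.00667; 0.0665 with close pairs summed and 0.11 with all groups in one fit). Against AAV-GFP the log2 fold change of -0.84 (SE 0.34) was not called (edgeR adjusted p = 0.225), whereas without AAV-GFP 4 it was called at -1.03 (adjusted p = 0.0202). *Cyp2c54* had the same low library, with 6.06 CPM in AAV-GFP 4 and 38.9 to 92.7 in the other AAV-GFP libraries, and was not called in edgeR in any comparison (lower with AAV-miR-34b/c than with vehicle in voom with quality weights).

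*Cyp2c67*, *Cyp2c68*, *Cyp2c40* and *Cyp2c69* are close relatives, with 16.5%, 26.2%, 42.6% and 21.9% of the 100-base words of their last 500 bases shared among them, so the division of reads between these 4 genes is uncertain. *Cyp2c67* had 101, 87.6, 157, 110.0 and 194 CPM in vehicle, 95.2 to 249.6 (median 145) with AAV-GFP and 46.0 to 111 (median 75.8) with AAV-miR-34b/c. AAV-miR-34b/c 3 and 4, a close pair, held its lowest values. *Cyp2c67* was 2.04-fold lower with AAV-miR-34b/c than with AAV-GFP (log2 fold change -1.03, SE 0.24, edgeR adjusted p = 0.02), with 5 of 7 livers below the AAV-GFP range. The call was lost without AAV-miR-34b/c 4 (adjusted p = 0.0509) and with close pairs summed (adjusted p = 0.131). Against vehicle it fell as well (log2 fold change -0.72, SE 0.24, edgeR adjusted p = 0.0424), a call lost in 7 of 12 fits with 1 library left out. *Cyp2c68* had 185, 132, 234, 222 and 259 CPM in vehicle, 119 to 249 (median 152) with AAV-GFP and 89.3 to 182 (median 127) with AAV-miR-34b/c. AAV-miR-34b/c was lower than vehicle (log2 fold change -0.68, SE 0.19, edgeR adjusted p = 0.0203). The edgeR adjusted p was 0.0532 without vehicle 4, 0.0612 without vehicle 5 and 0.204 with close pairs summed. AAV-GFP was called against neither group in edgeR unless the replicate number was added as a block. It was lower than vehicle with that block and in voom.

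*Cyp2c40* and *Cyp2c69* are known as female-biased genes and were at low levels in these male livers. On the same list of 9 P450 genes are *Cyp2a4* and *Cyp2b9*, which went the other way with AAV-GFP. They had 1 and 0 counts in vehicle, 135 and 10 with AAV-GFP and 16 and 0 with AAV-miR-34b/c. *Cyp2c39*, *Cyp2g1* and *Cyp3a44* had 23, 22 and 5 counts in all, and *Cyp2b13* and *Cyp3a16* had none. *Cyp2c40* had 12.4, 4.61, 19.9, 10.2 and 19.8 CPM in vehicle, 0.388 to 11.1 (median 2.15) with AAV-GFP and 0 to 6.28 (median 0.795) with AAV-miR-34b/c. Within AAV-GFP, libraries 6 and 7 had 11.1 and 10.4 CPM and the other 5 at most 2.41. The difference between AAV-miR-34b/c and vehicle passed (log2 fold change -2.40, SE 0.58, edgeR adjusted p = 0.00907; 0.109 with close pairs summed). *Cyp2c40* entered this test through vehicle, where it was high: all 5 vehicle but 3 of 7 AAV-miR-34b/c libraries reached the level that the low-count filter asks of at least 5 libraries, so the call is a description of its fall and no support for the count of lower genes. The difference between AAV-GFP and vehicle did not pass (log2 fold change -1.74, SE 0.58, edgeR adjusted p = 0.0515). It too was tested through vehicle alone, with 2 of 7 AAV-GFP libraries at that level, so the calls without AAV-GFP 6, AAV-GFP 7 or vehicle 2 (adjusted p = 0.0104, 0.0121 and 0.0382) are no support. *Cyp2c69* was not tested, with 84 counts in the vehicle libraries, 17 with AAV-GFP and 13 with AAV-miR-34b/c (exact permutation p = 0.00253 and 0.00379 for log2 CPM against vehicle). Here too the close pairs count as separate samples. Among male-biased liver genes outside the P450 family, 7 of 10 tested fell with AAV-GFP and 8 of 10 with AAV-miR-34b/c against vehicle, including *Hsd3b5* (log2 fold change -2.27 and -2.52, edgeR adjusted p = 0.00163 and 0.00217), whereas none of the 4 P450 genes listed as male-biased (*Cyp2d9*, *Cyp2j5*, *Cyp2u1* and *Cyp4b1*) passed in edgeR. Of all genes tested, 5.19% and 9.75% were lower in these comparisons with vehicle. In voom *Cyp2d9* was higher and *Cyp4b1* lower when AAV-miR-34b/c was set against vehicle. Among the male-biased genes that fell, *Susd4* entered the test through vehicle, where it is high. Summed, the male-biased genes outside the P450 family had 26382 to 29162 CPM in vehicle. They had 34108 and 33596.5 CPM in AAV-GFP 6 and 7, 32875.5 and 33800 in AAV-miR-34b/c 5 and 7, and 15224 to 23191 in the other TAA libraries.

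*Cyp2c23* was higher than in vehicle with AAV-GFP, and *Cyp2c38* in both TAA groups. *Cyp2c23*, which forms epoxides of arachidonic acid, had 96.4, 161, 131, 104 and 159 CPM in vehicle, 169.7 to 338 (median 263) with AAV-GFP and 124 to 246 (median 167) with AAV-miR-34b/c. All AAV-GFP libraries lay above all vehicle libraries, while 4 of 7 AAV-miR-34b/c libraries lay above the vehicle range and 4 of 7 below the AAV-GFP range. It was 2.06-fold higher with AAV-GFP than with vehicle (log2 fold change 1.04, SE 0.19, edgeR adjusted p = 0.00216; 0.0545 with close pairs summed), and its log2 fold change of -0.58 between the TAA groups did not pass (SE 0.18, edgeR adjusted p = 0.093; 0.0436 in DESeq2, 0.039 with library size only, 0.0285 in voom and 0.0382 without AAV-GFP 6). Set against vehicle, AAV-miR-34b/c was not called in edgeR (adjusted p = 0.0896), but was higher in voom (0.0111) and without AAV-miR-34b/c 1 (0.0376). *Cyp2c38* had 4.84, 4.61, 7.09, 3.15 and 12.1 CPM in vehicle, 9.10 to 37.9 (median 14.7) with AAV-GFP and 10.9 to 16.3 (median 14.0) with AAV-miR-34b/c. It was 2.97-fold higher with AAV-GFP (log2 fold change 1.57, SE 0.40, edgeR adjusted p = 0.0142) and 2.24-fold higher with AAV-miR-34b/c (log2 fold change 1.16, SE 0.29, edgeR adjusted p = 0.0108) than with vehicle, in all 12 fits of each comparison with 1 library left out, but not with close pairs summed (adjusted p = 0.0905 and 0.0794). At the low-count filter's level were 4 of 5 vehicle and all 14 TAA libraries, so *Cyp2c38* entered through the groups where it is high. These calls, also those with 1 library left out, describe its rise and are no support. *Cyp2c38* was also higher in both comparisons with at least 10 counts asked of every library, which vehicle met too.

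*Cyp2c70* makes muricholic acids, the bile acids that set mouse bile apart from human bile, and *Cyp2c29* is a CAR target. *Cyp2c70* had 907, 533, 595, 927 and 656 CPM in vehicle, 215 to 555 (median 374) with AAV-GFP and 377 to 926 (median 563) with AAV-miR-34b/c. AAV-GFP was lower than vehicle (log2 fold change -0.98, SE 0.22, edgeR adjusted p = 0.00811; 0.0971 with close pairs summed), with 6 of 7 livers below the vehicle range. AAV-miR-34b/c 1 and 2 lay just under the vehicle maximum, at 926 and 914 CPM, and 4 of 7 livers of that group were above every AAV-GFP liver, but the log2 fold change of 0.73 did not pass (SE 0.24, edgeR adjusted p = 0.117). *Cyp2c29* had 397, 387, 344, 424 and 497 CPM in vehicle, 306 to 450.2 (median 408) with AAV-GFP and 259 to 516 (median 303) with AAV-miR-34b/c, with no call in edgeR (lower with AAV-miR-34b/c than with vehicle in voom). Of the remaining genes of the subfamily, *Cyp2c55* was tested only between AAV-GFP and vehicle (log2 fold change 1.47, SE 0.49, edgeR adjusted p = 0.0516), where 5 AAV-GFP and 0 vehicle libraries reached the level of the low-count filter, so it entered through the group where it is high and its call in DESeq2 is no support, and *Cyp2c39* had 23 counts in all.

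**Figure D3:**
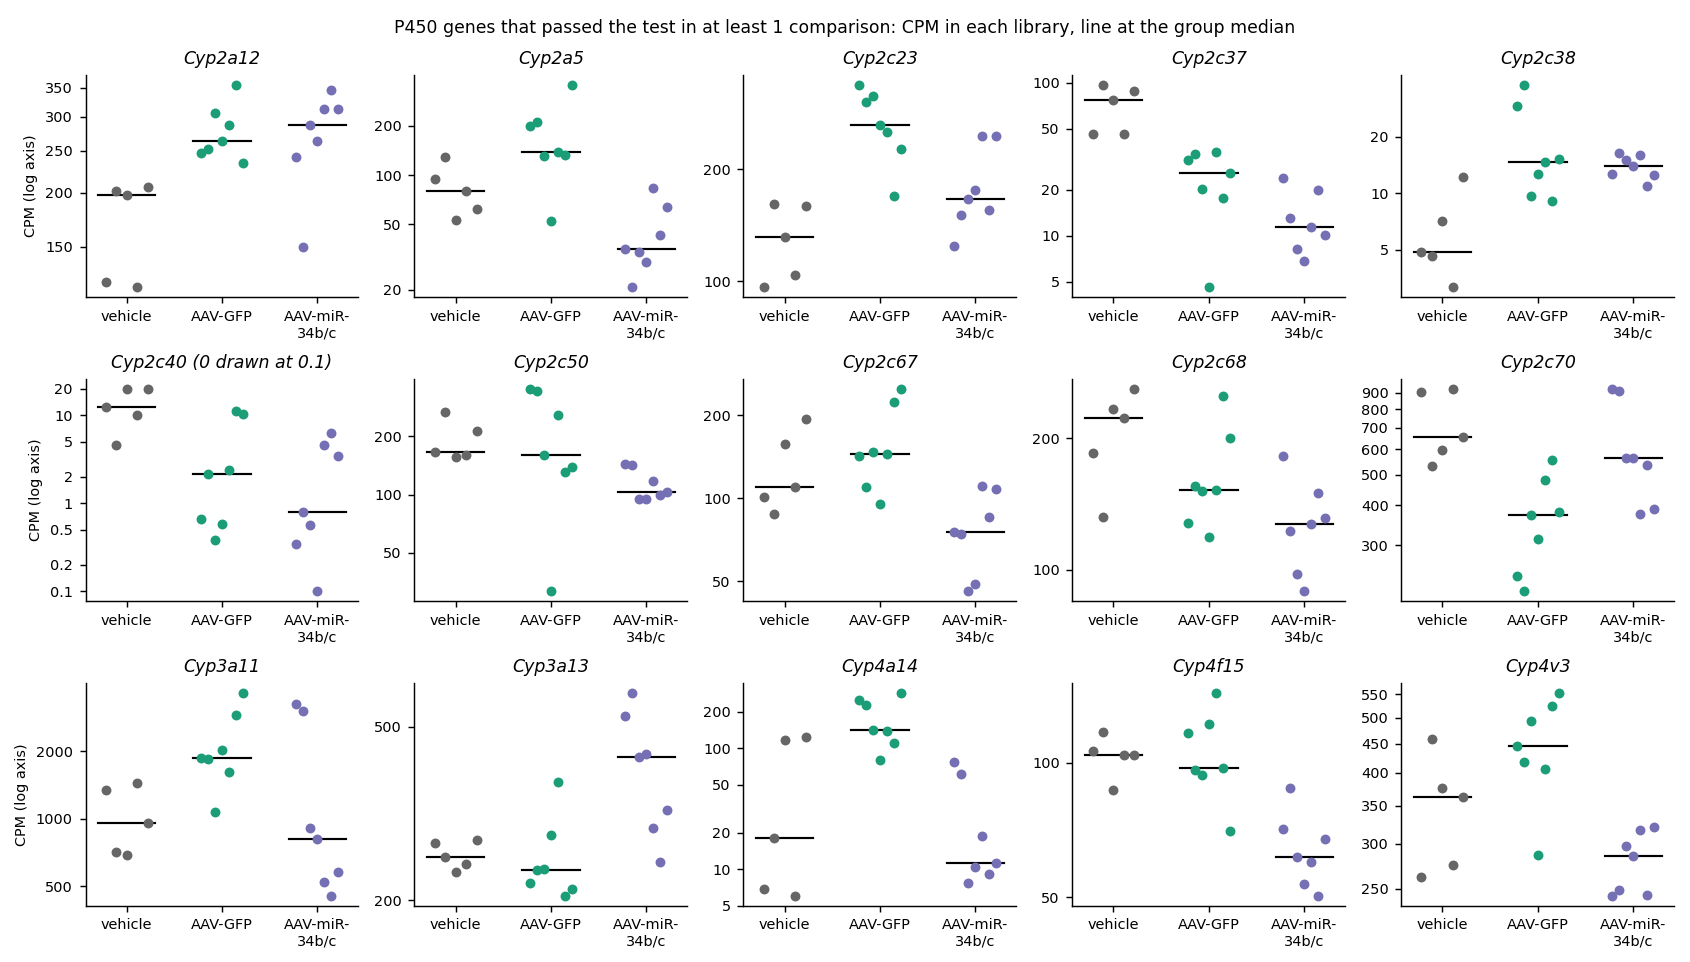
CPM (log axis) in each library of the 15 P450 genes that passed the test in at least 1 comparison, with a line at the group median; a value of 0 CPM is drawn at 0.1. For *Cyp4a14* the 7 AAV-miR-34b/c points lie below all AAV-GFP points, for *Cyp2c37* all points of both TAA groups lie below the vehicle points, and for *Cyp3a11* AAV-miR-34b/c 1 and 2 had 3227 and 3028 CPM and the other 5 at most 911.

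Subfamily 3A, led by *Cyp3a11*, the main PXR target and counterpart of human CYP3A4, varied widely between livers. *Cyp3a11* (ENSMUSG00000056035, chromosome 5 from 145854426 to 145879964) had 1339, 708, 691, 1445 and 953 CPM in vehicle, 1075 to 3623 (median 1865) with AAV-GFP and 455 to 3227 (median 813) with AAV-miR-34b/c. It was 2.08-fold higher with AAV-GFP than with vehicle (log2 fold change 1.06, SE 0.27, edgeR adjusted p = 0.015), with 6 of 7 livers above the vehicle range, a call lost with close pairs summed (adjusted p = 0.0872) and with all groups in one fit (0.116). With AAV-miR-34b/c the close pair of libraries 1 and 2 had 3227 and 3028 CPM and the other 5 had 455 to 911, below every AAV-GFP liver. Over all 7 livers *Cyp3a11* passed against neither AAV-GFP (log2 fold change -0.66, SE 0.43, edgeR adjusted p = 0.513) nor vehicle (0.41, SE 0.47, adjusted p = 0.549). limma-voom with sample quality weights, which gives discordant libraries less weight, gave -1.20 against AAV-GFP (adjusted p = 0.0184) and turned the sign against vehicle to -0.39 (adjusted p = 0.307).

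*Cyp3a25* and *Cyp3a59* showed the same pair of libraries, with 241 and 232 CPM of *Cyp3a25* and 13 and 17.5 CPM of *Cyp3a59* in AAV-miR-34b/c 1 and 2 and at most 104 and 5.92 CPM in the other 5, and neither was called in edgeR (*Cyp3a25* was lower between the TAA groups in voom). *Cyp3a13*, an enzyme of the same subfamily that is also found in the intestine, had 271, 251, 232, 242 and 275 CPM in vehicle, 205 to 373 (median 235) with AAV-GFP and 245 to 598 (median 427) with AAV-miR-34b/c. Of the AAV-miR-34b/c livers, 6 of 7 lay above the vehicle range and 4 of 7 above the AAV-GFP range. *Cyp3a13* rose against vehicle (log2 fold change 0.68, SE 0.20, edgeR adjusted p = 0.0241), a call lost without vehicle 3 (adjusted p = 0.0515), without vehicle 4 (0.0624) and with close pairs summed (0.197). Against AAV-GFP it did not pass in edgeR (log2 fold change 0.68, SE 0.20, edgeR adjusted p = 0.0695) and was called in DESeq2 (adjusted p = 0.0269), with all groups in one fit (0.0254), without AAV-GFP 5 (0.0342) and without AAV-miR-34b/c 6 (0.0324).

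Subfamily 4A, the omega-hydroxylases of fatty acids and the textbook targets of PPAR-alpha, held the largest fold change of any P450 gene tested in the 3 comparisons. *Cyp4a14* (ENSMUSG00000028715, chromosome 4 from 115486200 to 115496142) had 6.91, 18.1, 117, 6.06 and 124 CPM in vehicle, 79.9 to 286 (median 140.4) with AAV-GFP and 7.62 to 77.5 (median 11.2) with AAV-miR-34b/c. The vehicle libraries split by close pair, with 6.06 and 6.91 CPM in vehicle 4 and 1 and 117 and 124 CPM in vehicle 3 and 5. With AAV-miR-34b/c, the close pair of libraries 1 and 2 had 77.5 and 61.2 CPM, and the rest had 7.62 to 18.9 CPM. *Cyp4a14* was 6.38-fold lower with AAV-miR-34b/c than with AAV-GFP (log2 fold change -2.67, SE 0.50, edgeR adjusted p = 0.00477), and no liver of one group reached the range of the other (exact permutation p = 0.000583, the least possible with 7 and 7 libraries). The call was kept in all 14 fits with 1 library left out, in which the log2 fold change was -3.20 to -2.50, and with close pairs summed (adjusted p = 0.0445). Its log2 fold change of 1.71 between AAV-GFP and vehicle missed the threshold (SE 0.59, edgeR adjusted p = 0.0582), and it passed without vehicle 3, without vehicle 5 or without AAV-GFP 6 (adjusted p = 0.0314, 0.0265 and 0.0379). It also passed with no filter on low counts, in voom and with the replicate number added as a block. Against vehicle, AAV-miR-34b/c was not called (log2 fold change -0.94, SE 0.74, adjusted p = 0.37).

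*Cyp4a10*, its neighbour in function, had 8.98, 51.4, 117, 8.72 and 101 CPM in vehicle, 41.8 to 171 (median 130.2) with AAV-GFP and 46.3 to 91.2 (median 68.0) with AAV-miR-34b/c. Its values split in the same vehicle pairs. Its log2 fold changes of 1.05 (SE 0.50, edgeR adjusted p = 0.169) with AAV-GFP against vehicle and -0.78 (SE 0.27, adjusted p = 0.144) with AAV-miR-34b/c against AAV-GFP were not called in edgeR's fit of all libraries with TMM and no block. The first passed in voom and with the replicate number added as a block. The second passed in voom, with library size only and without AAV-GFP 4. *Cyp4a31* had 0.969 to 14.2 CPM and a log2 fold change of 0.55 between the TAA groups (SE 0.35, edgeR adjusted p = 0.498), and *Cyp4a32*, with 43.1% of its 3′ words shared with relatives, had 36 counts. Of 12 tested PPAR-alpha targets outside the P450 genes, 2 were higher with AAV-GFP than with vehicle (7.54% of all genes; 1 of them, *Vnn1*, entered through AAV-GFP, where it is high, with 4 of 5 vehicle libraries at the filter's level), and 1 was lower with AAV-miR-34b/c than with AAV-GFP (1.42%), the acyl-CoA thioesterase gene *Acot1* (log2 fold change -1.96, edgeR adjusted p = 0.00382; all 7 AAV-GFP but 4 of 7 AAV-miR-34b/c libraries reached the filter's level, so it entered through the group where it is high), with a median log2 fold change over the 12 of -0.33.

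Subfamilies 4F and 4V hydroxylate eicosanoids and other long fatty acids, and leukotrienes are among the substrates of 4F enzymes. The summed 4F level was 283, 302, 274, 267 and 295 CPM in vehicle, 218 to 353 (median 309) with AAV-GFP and 188 to 261 (median 219) with AAV-miR-34b/c, so that every AAV-miR-34b/c library lay below every vehicle library. *Cyp4f15* had 106, 117, 86.9, 104 and 104 CPM in vehicle, 70.5 to 143 (median 97.2) with AAV-GFP and 50.5 to 87.9 (median 61.5) with AAV-miR-34b/c. It fell with AAV-miR-34b/c against AAV-GFP (log2 fold change -0.72, SE 0.17, edgeR adjusted p = 0.0186; 5 of 7 livers below the AAV-GFP range) and against vehicle (log2 fold change -0.68, SE 0.15, edgeR adjusted p = 0.00626; 6 of 7 livers below the vehicle range), whereas AAV-GFP and vehicle differed by 0.033 (SE 0.17), with a sign that turned without vehicle 3, AAV-GFP 4 or AAV-GFP 5. With close pairs summed the adjusted p was 0.139 and 0.0735, and without AAV-miR-34b/c 4 it was 0.0515 against AAV-GFP.

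*Cyp4v3*, the mouse form of the gene mutated in human Bietti crystalline dystrophy, had 262, 459, 376, 275 and 362 CPM in vehicle, 286 to 553 (median 446) with AAV-GFP and 243 to 321 (median 285) with AAV-miR-34b/c. With AAV-miR-34b/c, 4 of 7 values were below every AAV-GFP liver. The difference passed (log2 fold change -0.69, SE 0.15, edgeR adjusted p = 0.012), in all 14 fits with 1 library left out, but not with close pairs summed (adjusted p = 0.142). *Cyp4f14* had medians of 146, 167 and 115 CPM in the vehicle-treated, GFP and miR-34b/c livers. Between the TAA groups it did not pass (log2 fold change -0.48, SE 0.15, edgeR adjusted p = 0.0969), and its adjusted p in DESeq2 was 0.0379. *Cyp4f13* was not called in any comparison in edgeR, and *Cyp4f16* had 26 counts in vehicle, 31 with AAV-GFP and 64 with AAV-miR-34b/c.

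The AhR target *Cyp1a2*, which metabolizes caffeine and aromatic amines around the central vein, had 758, 1062, 977, 679 and 824 CPM in vehicle, 376 to 1109.9 (median 918) with AAV-GFP and 532 to 975 (median 616) with AAV-miR-34b/c. AAV-GFP 4 was the lowest of all 19 libraries, and 6 of 7 AAV-miR-34b/c libraries lay below the vehicle range. None of its comparisons passed, with log2 fold changes of -0.033 (SE 0.21, edgeR adjusted p = 0.938; above 0 with normalization by library size only and without vehicle 2, vehicle 3 or AAV-GFP 4), -0.38 (SE 0.20, edgeR adjusted p = 0.395) and -0.40 (SE 0.17, edgeR adjusted p = 0.101; 0.0238 without AAV-miR-34b/c 6, 0.0411 with library size only and 0.0251 in voom). *Cyp1a1* had 7 counts and *Cyp1b1* 11 counts in all libraries together.

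The well-counted subfamilies 2D, 2F and 2J gave no call in edgeR's test of any comparison unless the replicate number was added as a block (*Cyp2d26* and *Cyp2f2* higher and *Cyp2j6* lower with AAV-GFP than with vehicle), whereas voom with quality weights called *Cyp2d26* higher in both TAA groups and *Cyp2d9* higher with AAV-miR-34b/c than with vehicle. Subfamily 2D, which includes the male-biased steroid hydroxylase *Cyp2d9*, had 5 tested genes with log2 fold changes from -0.07 to 0.43 with AAV-GFP against vehicle and from -0.25 to 0.15 with AAV-miR-34b/c against AAV-GFP. *Cyp2d9* had 827, 799, 1018, 763 and 896 CPM in vehicle, 601 to 1576 (median 1242) with AAV-GFP and 737 to 1327 (median 1091) with AAV-miR-34b/c (edgeR adjusted p = 0.154, 0.693 and 0.279 in the order AAV-GFP against vehicle, the TAA groups against each other, and AAV-miR-34b/c against vehicle). *Cyp2f2*, a naphthalene epoxidase known from periportal hepatocytes, had 673, 973, 1132, 680.4 and 1091 CPM in vehicle, 963 to 1520.2 (median 1160.2) with AAV-GFP and 688 to 1529 (median 1147) with AAV-miR-34b/c (log2 fold change 0.44, -0.18 and 0.27 in the same order, with SE 0.19, 0.19 and 0.21, none called in edgeR). *Cyp2j5*, an arachidonic acid epoxygenase, varied little, with 509 to 772 CPM over all libraries and log2 fold changes of -0.019, 0.16 and 0.15 (SE 0.15, 0.12 and 0.13), the first of which turned sign without vehicle 3, AAV-GFP 1 or AAV-GFP 2 and with library size only, and the second with library size only.

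The remaining tested genes were low or did not pass in edgeR. *Cyp2d26* had a log2 fold change of 0.32 for AAV-miR-34b/c livers against vehicle (SE 0.17, edgeR adjusted p = 0.188; medians of 615 and 492 CPM). The vitamin D 25-hydroxylase gene *Cyp2r1* had 10.0, 10.9, 8.87, 20.3 and 10.1 CPM in vehicle, 5.91 to 13.3 (median 8.14) with AAV-GFP and 6.69 to 16.7 (median 11.4) with AAV-miR-34b/c, and its log2 fold changes of -0.47 (SE 0.27) with AAV-GFP and -0.15 (SE 0.28) with AAV-miR-34b/c against vehicle did not pass, the second changing sign without vehicle 4. *Cyp2u1*, a fatty acid hydroxylase gene, had 13.3 and 13.5 CPM in AAV-miR-34b/c 1 and 2 and at least 28.0 CPM in every other library, and its log2 fold change between the TAA groups was -0.14 (SE 0.32), turning sign without either of these libraries. *Cyp4b1*, a fatty acid and furan oxidase gene, had 3.20 to 17.1 CPM and log2 fold changes of -0.33 (SE 0.38), -0.035 (SE 0.39) and -0.35 (SE 0.40) in the order given above, of which the second turned sign without AAV-GFP 7 or without AAV-miR-34b/c 3, 4 or 6. *Cyp2s1* and *Cyp2g1*, the most counted genes of their subfamilies, had 8 and 22 counts over all libraries.

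**Figure D4:**
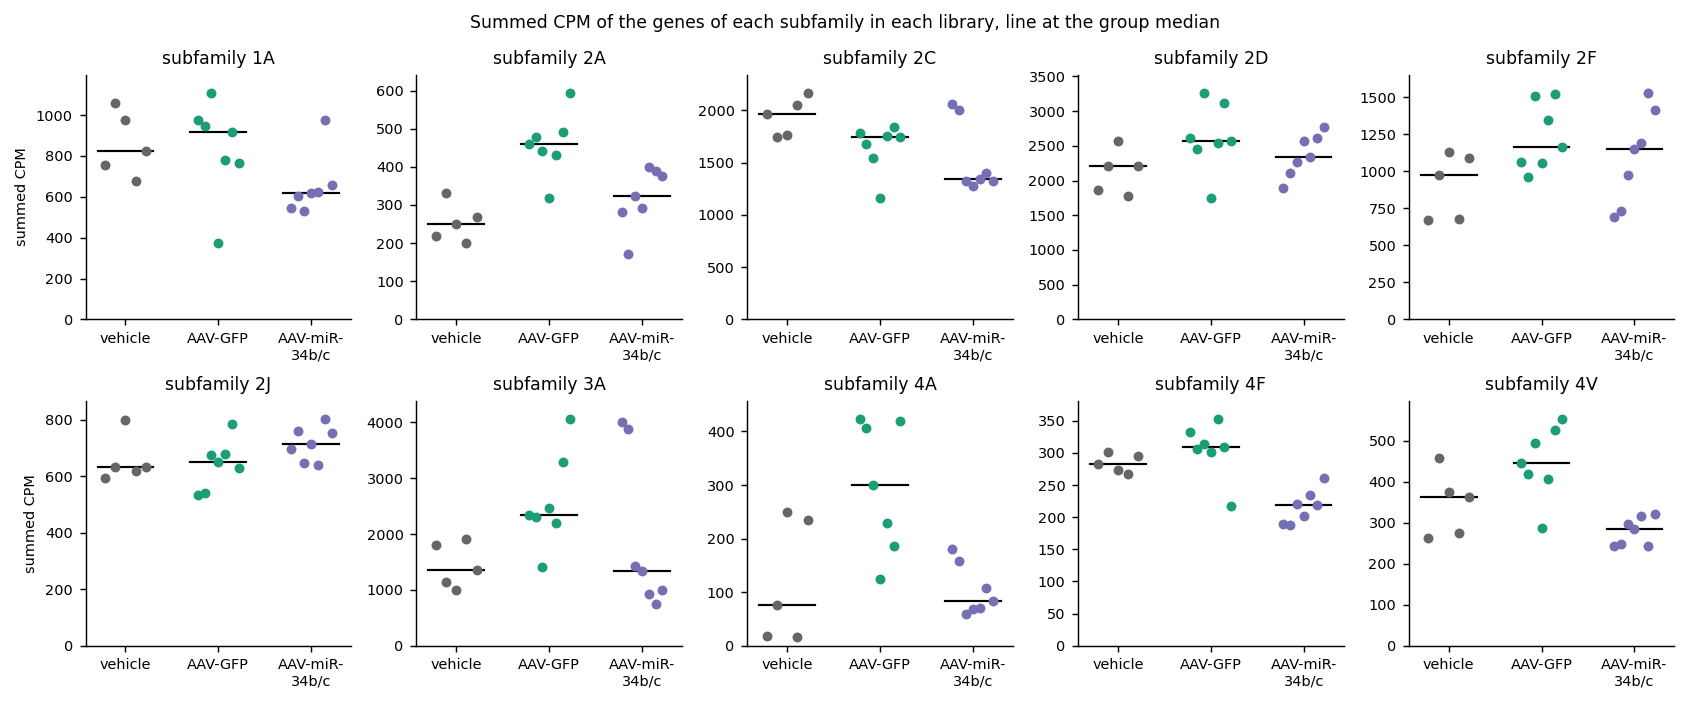
Summed CPM (axis from 0) of the P450 genes of 10 subfamilies in each library, with a line at the group median. Subfamily 4F is lower in every AAV-miR-34b/c library than in every vehicle library, subfamily 2A is higher in 6 of 7 AAV-GFP libraries than in any vehicle library, and in subfamilies 2C and 3A the first 2 AAV-miR-34b/c libraries stand above the other 5.

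Genes that serve or control P450 enzymes were taken from lists. *Por*, which encodes P450 reductase, had a median of 667 CPM in vehicle, 269.5 with AAV-GFP and 455 with AAV-miR-34b/c, and it was lower in both TAA groups than in vehicle (log2 fold change -1.28, edgeR adjusted p = 5.36e-05, and -0.87, adjusted p = 0.0168). The shares of all genes called were 7.54% higher and 5.19% lower with AAV-GFP against vehicle, 12.2% and 9.75% with AAV-miR-34b/c against vehicle, and 1.95% and 1.42% between the TAA groups, and counts of listed genes are read beside them. Of the 14 genes of electron donors and heme supply, 3 were higher and 1 lower with AAV-GFP, 3 rose and 4 fell with AAV-miR-34b/c against vehicle, and none passed between the TAA groups (median log2 fold change -0.08). The lower ones with AAV-miR-34b/c were *Uros*, which entered through vehicle, where it is high, and others that included *Alas1*, the first enzyme of heme synthesis (log2 fold change -1.02, edgeR adjusted p = 0.00162). Of 17 tested receptors and factors known to control P450 genes, *Hnf4a* was higher in both TAA groups than in vehicle (log2 fold change 0.86 and 1.21, edgeR adjusted p = 0.00538 and 0.0001) and *Nr1i3*, which encodes CAR, was lower with AAV-miR-34b/c (-1.0, adjusted p = 0.00687). In all, 3 of the 17 rose and none fell with AAV-GFP, 2 rose and 2 fell with AAV-miR-34b/c against vehicle, and none passed between the TAA groups. *Nr0b2*, 1 of the higher genes in both, entered through the TAA groups, where it is high (3 of 5 vehicle libraries at the filter's level). Among 15 tested microsomal enzymes of other families that share substrates with P450 enzymes, 5 fell with AAV-miR-34b/c against AAV-GFP, among them the epoxide hydrolase gene *Ephx1* (log2 fold change -1.19, edgeR adjusted p = 7.66e-05) and the glucuronosyltransferase gene *Ugt2b1* (-1.10, adjusted p = 0.0106), and none rose.

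Acute phase genes and markers of other cells were summed in each library. Summed acute phase transcripts were 32187 to 76361 CPM in vehicle, 24255 to 59851 with AAV-GFP and 52842 to 201547 with AAV-miR-34b/c, and 18 of 22 such genes were higher with AAV-miR-34b/c than with AAV-GFP and none lower; 3 of the 18 (*Orm2*, *Orm3* and *Lcn2*, with 6, 5 and 6 of 7 AAV-GFP libraries at the filter's level) entered through AAV-miR-34b/c, where they are high. Markers of lymphocytes and neutrophils, 7 genes of which 3 were tested, summed to 32.4 to 96.0, 25.1 to 85.5 and 69.0 to 1867 CPM, highest in AAV-miR-34b/c 1 and 2 (1867 and 1864 CPM), the pair with the highest *Cyp3a11* of that group. Of these, *S100a8* (log2 fold change 4.36, edgeR adjusted p = 0.00243) and *S100a9* (4.31, adjusted p = 0.00415) rose with AAV-miR-34b/c against AAV-GFP, the third tested gene, *Ptprc*, did not, and the B-cell gene *Cd79a* had a median of 0 CPM in every group. The 12 markers of stellate cells and fibroblasts summed to 386 to 590.2, 445 to 559.6 and 288 to 514 CPM. Of them 4 of 11 tested rose with AAV-GFP against vehicle, 2 of which, *Pdgfrb* and *Col1a1*, entered through AAV-GFP, where they are high (0 and 4 of 5 vehicle libraries at the filter's level), and 2 of 10 fell with AAV-miR-34b/c against AAV-GFP, the collagen genes *Col1a1* (log2 fold change 2.42, edgeR adjusted p = 0.000298, and -1.92, adjusted p = 0.000898) and *Col3a1* (-1.46, adjusted p = 0.00305, between the TAA groups). The 11 markers of macrophages summed to 519.9 to 1007, 443 to 721 and 652 to 887 CPM, and 4 fell with AAV-GFP against vehicle, 2 rose with AAV-miR-34b/c against AAV-GFP and 1 fell against vehicle. The 8 of endothelial cells summed to 235 to 294, 198 to 272 and 248 to 326 CPM and the 6 of cholangiocytes to 18.2 to 40.9, 52.7 to 94.4 and 49.9 to 119 CPM. The endothelial marker *Lyve1* rose with AAV-miR-34b/c against AAV-GFP (log2 fold change 1.06, edgeR adjusted p = 0.0013) and vehicle (1.46, adjusted p = 9.34e-05). *Cdh5* fell against vehicle (-1.25, edgeR adjusted p = 0.0038), and no other endothelial marker passed. Of 2 tested cholangiocyte markers, *Spp1* rose with AAV-GFP (1.31, edgeR adjusted p = 0.0079) and *Sox9* with AAV-miR-34b/c (1.40, adjusted p = 0.0022) against vehicle. Pericentral markers outside the P450 genes, 12 in all, summed to 2809 to 3132 CPM in vehicle, 1575 to 2772 with AAV-GFP, lowest in AAV-GFP 4, and 2093 to 2647 with AAV-miR-34b/c. Of them 4 of 12 tested fell and none rose with AAV-GFP against vehicle, and 2 of 11 (*Glul* and *Slc13a3*) rose and none fell with AAV-miR-34b/c against AAV-GFP. The 12 periportal markers summed to 9685 to 10506, 8016 to 12047 and 8013 to 12132 CPM. The 7 P450 genes known as pericentral together had 2336 to 2866 CPM in vehicle, 2802 to 5399.9 with AAV-GFP and 1685 to 4551 with AAV-miR-34b/c, of which *Cyp2a5* and *Cyp3a11* rose and *Cyp2c37* fell with AAV-GFP, and *Cyp2a5*, *Cyp2c37* and *Cyp2c50* fell with AAV-miR-34b/c, against vehicle. The part of these markers in the P450 results was not tested.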

How the data were processed

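The authors deposited 1 table of raw counts per Ensembl gene for 19 liver libraries, made with a 3′ mRNA-seq kit and sequenced as single-end reads of 100 bp. Per the submitters' processing notes the reads were aligned with STAR to mm10; its version, the annotation release, the strand setting and any handling of duplicate reads are not given in the sources used here. Whether molecular identifiers were used is not given either, and without them counts are not independent molecules. Counting error is then only a part of the error of counts in a single library. The members and gene lists were chosen with earlier results of these data known.

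Symbols came from the reference annotation (31011 of 31053 genes matched). Each comparison was fitted on its own 2 groups over all genes with edgeR 4.0.16 in R 4.3.3 (filterByExpr at 10 counts per gene and 15 in total, TMM normalization, quasi-likelihood F test, Benjamini-Hochberg adjustment over all genes tested). The standard error is the log2 fold change divided by the square root of F. CPM used TMM-normalized library sizes over all 19 libraries, and log2 CPM a prior count of 2. Permutation tests of single genes were exact and two-sided, with smallest possible p = 0.00126 for 7 against 5 and 0.000583 for 7 against 7 libraries. They took each library as a separate sample, close pairs included. Fits were tested on simulated data. Given in full were, in each comparison, the 5 tested members of each direction that ranked first by adjusted p and the most counted member of each subfamily, and from each list up to 4 genes that passed, by adjusted p. Other members and listed genes named, such as those untested, were added after their values were seen. Libraries with a coefficient of variation beyond counting noise under 0.2 were also summed. The other alternatives were no filter, at least 10 counts in every library, DESeq2 size factors, library size only, DESeq2 1.42.0, voom with sample quality weights (limma 3.58.1), all groups in one fit, a replicate block and each library left out. Protein sequences were not analysed here. P-values measure only the spread between these libraries.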

Additional observations from a re-analysis of the deposited data

Results flagged for a closer look

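In 8 of 81 sets of libraries examined, 1 library stood farther from the rest of its group than Dixon's 95% limit allows, where about 4.05 would be flagged by chance. AAV-GFP 4 accounts for 3 of them: *Cyp1a2* at a log2 CPM of 8.56 (nearest other AAV-GFP library 9.58), *Cyp2c37* at 2.39 (4.18) and *Cyp2c50* at 5.02 (7.03), all of them genes known as pericentral. Of the 7 P450 genes known as pericentral, *Cyp3a11* was not low in AAV-GFP 4, with 2025 CPM beside a group median of 1865. *Cyp2a5*, *Cyp2c29* and *Cyp2c54* had their lowest AAV-GFP values there, at 52.5, 306 and 6.06 CPM. This library also had the lowest summed level of pericentral markers outside the P450 genes of its group, 1575 CPM, and 50 of the 125 *Cyp2b10* counts. Without it, *Cyp2c37* (log2 fold change -1.04, edgeR adjusted p = 0.0467) and *Cyp2c50* (-1.03, adjusted p = 0.0202) were lower with AAV-miR-34b/c than with AAV-GFP, and 8 P450 genes were lower in all (1.64% of all genes).

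In the AAV-miR-34b/c group, library 6 had *Cyp1a2* at 9.93 (nearest 9.37) and library 2 had *Cyp2a12* at 7.23 (nearest 7.92), on the same log2 CPM scale. In the vehicle group, library 3 had *Cyp2j5* at 9.59 (nearest 9.22) and library 4 had *Cyp2r1* at 4.39 (nearest 3.52). AAV-GFP 5 had 4383805 total counts, the next highest of its group 3239809.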

How the results depend on the processing

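Calls against vehicle for *Cyp2c37* and the call for *Cyp4a14* between the TAA groups were kept under every alternative run. With close libraries summed, 1 P450 gene was higher (*Cyp2a4*, untested in the filtered fit of all libraries and admitted by its high group) and 1 lower with AAV-GFP against vehicle, 1 was lower with AAV-miR-34b/c against AAV-GFP, and 0 were higher and 1 was lower with AAV-miR-34b/c against vehicle; fewer samples entered that fit. Voom with quality weights gave 9 higher and 4 lower, 10 lower, and 6 higher and 12 lower in the same order, where 14.2% and 14.0%, 4.25%, and 20.5% and 20.9% of all genes were called. Without a filter, 9 were higher and 4 lower with AAV-GFP against vehicle (5.14% and 3.22% of all genes), *Cyp2a4* among the higher. Between the TAA groups, DESeq2 and the fit of all groups each called 1 higher and 7 lower (3.22% and 2.64%, and 2.54% and 1.86%, of all genes), and library size only gave 8 lower (5.46% of all genes). Library size only moved the median of all genes between the TAA groups to -0.20, with 119 higher and 505 lower of all genes (180 and 131 with TMM), and to -0.13 between AAV-miR-34b/c and vehicle, with 730 and 1616 (1131 and 906 with TMM). With 1 library left out, the P450 counts in the order above were 4 to 7 higher and 2 to 4 lower, 0 to 1 higher and 3 to 8 lower, and 1 to 4 higher and 4 to 7 lower, where the shares of all genes were 4.46% to 10.8% and 2.65% to 8.94%, 1.31% to 2.09% and 0.918% to 1.64%, and 7.63% to 15.4% and 5.74% to 13.8%.

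The replicate numbers did not pair the samples (correlations of -0.28 to 0.28 between equal numbers), and the replicate block gave 9 higher and 5 lower with AAV-GFP against vehicle (17.1% and 16.2% of all genes; the genes not called without the block were *Cyp2d26*, *Cyp2f2*, *Cyp4a10* and *Cyp4a14*, higher, and *Cyp2c40*, *Cyp2c68* and *Cyp2j6*, lower) and 3 lower between the TAA groups (0.638%; *Cyp4f15* and *Cyp4v3* lost). With AAV-miR-34b/c against vehicle the block gave 2 higher and 5 lower (5.92% and 4.26% of all genes), with *Cyp2a5*, *Cyp2a12* and *Cyp2c68* lost. The block fits against vehicle tested 9273 genes with AAV-GFP and 9053 with AAV-miR-34b/c, where those without it tested 9522 and 9290. More than the block therefore changed between these fits, and which change moved the counts was not tested.

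Several uncalled values changed sign, and the cause was not tested. In AAV-GFP against vehicle these were *Cyp1a2* (0.027 with library size only), *Cyp2c50* (-0.13 with voom, -0.023 with the replicate block, -0.20 with close libraries summed), *Cyp2j5* (0.011 with 10 counts in every library, 0.038 with library size only, 0.031 summed), *Cyp3a13* (0.023 with 10 counts in every library, 0.053 with library size only, 0.0011 with voom, 0.065 with the replicate block, 0.020 summed) and *Cyp4f15* (-0.0023 summed). Between the TAA groups they were *Cyp2a12* (0.032 with voom), *Cyp2u1* (0.035 with voom) and *Cyp2j5* (-0.030 with library size only), and against vehicle with AAV-miR-34b/c *Cyp2r1* (0.060 with the replicate block) and *Cyp3a11* (-0.39 with voom). With 1 library left out the range crossed 0 in AAV-GFP against vehicle for *Cyp1a2* (-0.11 to 0.096), *Cyp2c50* (-0.11 to 0.27), *Cyp2j5* (-0.064 to 0.084), *Cyp3a13* (-0.13 to 0.038) and *Cyp4f15* (-0.054 to 0.11), between the TAA groups for *Cyp2a12* (-0.10 to 0.068), *Cyp2u1* (-0.33 to 0.0083) and *Cyp4b1* (-0.26 to 0.34), and for *Cyp2r1* with AAV-miR-34b/c against vehicle (-0.29 to 0.14).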

Other observations

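Clock genes set daily rhythms and through the PAR bZIP factors reach D-boxes such as that of *Cyp2a5*. Of 14 tested with AAV-GFP against vehicle, 4 were higher and 3 lower (7.54% and 5.19% of all genes) and 7 did not pass. Among the higher were *Nfil3* (log2 fold change 1.97, edgeR adjusted p = 0.0016) and *Clock* (1.03, adjusted p = 0.0030). The lower ones included the PAR bZIP gene *Dbp* (log2 fold change -1.54, edgeR adjusted p = 0.0358) and *Nr1d2* (-0.90, adjusted p = 0.0248). The PAR bZIP genes *Tef* and *Hlf* did not pass (edgeR adjusted p = 0.0647 and 0.0868). *Arntl* and *Per3*, counted among the higher and the lower in both comparisons with vehicle, entered through the group where they are high (*Arntl* with 0 vehicle and 5 AAV-GFP libraries at the level of the low-count filter, *Per3* with 5 and 1), so their calls are no support. With AAV-miR-34b/c against vehicle 3 of 13 were higher and 3 lower (12.2% and 9.75% of all genes), and between the TAA groups none of 11 passed. The hour at which the mice were killed is not in the labels used here. Of the AhR targets outside the P450 genes 2 were tested and none passed in any comparison, and of the female-biased genes the 1 tested between AAV-GFP and vehicle, *Abcd2*, was higher with AAV-GFP (log2 fold change 1.30, edgeR adjusted p = 0.038), with 3 of 5 vehicle and all 7 AAV-GFP libraries at that level. *Abcd2* thus entered through AAV-GFP, where it is high, and its call is no support.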
